A study of Homo sapiens with 4 samples.

Results

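SR proteins and heterogeneous nuclear ribonucleoproteins (hnRNPs) are the main families of RNA-binding proteins that steer the choice of splice sites. They were taken as every gene symbol made of SRSF plus digits or starting with HNRNP, without 4 antisense or pseudogene rows. This gave 33 genes, 12 SR and 21 hnRNP, of 23284 in the deposited tables. The splicing factors HNRPDL and HNRPLL carry their older symbols in the files and so fall outside the rule. RNA had been measured in 4 libraries of the human cell line A375, a BRAF-mutant melanoma. The cells carried, by stable transfection, the empty pcDNA3 plasmid (vector library), pcDNA3 with MAGE-A1 (overexpression library), pRNAT with a scrambled hairpin (scramble library) or pRNAT with a short hairpin for MAGE-A1 (knockdown library). MAGE-A1 is a cancer-testis antigen, made in testis and in many tumours. The labels do not say whether each transfectant is 1 clone or a pool, and there was 1 library per group, so differences between groups could not be tested and no p-values are given.

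SR proteins bind exonic enhancers through RNA recognition motifs, and their arginine- and serine-rich tails recruit the splicing machinery. The hnRNPs coat nascent RNA, and many of them bind silencers and oppose SR proteins at the same exons. Many genes of both families limit their own output by splicing in a poison exon with a premature stop, which sends the transcript to nonsense-mediated decay (NMD). In tumour cells SRSF1, SRSF3 and HNRNPA1 are known for shifting the splicing of growth and survival genes.

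Levels are RPKM, reads scaled to transcript length and library size, as the authors deposited them. Sets of 4 values follow the order vector, overexpression, scramble, knockdown. A log2 ratio compares a library with its control as log2((RPKM + 1) / (control RPKM + 1)), for genes at 1 RPKM or more in either, and a gene counted as higher or lower was 2-fold or more from its control (a log2 ratio of 1). MAGEA1 itself was at 1.80, 126, 0.767 and 0.473 RPKM, so the knockdown pair differed little in the targeted RNA. Small RNA genes made up 46.6%, 87.3%, 29.6% and 78.2% of the summed RPKM, and their part in the results was not tested. Read depth, estimated from the steps in low values, was 24090000, 12640000, 16300000 and 19460000 reads. Of 8 melanocyte lineage markers 4 reached 1 RPKM, SOX10 at 281 to 336 among them, while the pigment genes TYR, TYRP1, MLANA and PMEL stayed under 1 RPKM in every library. Others of these markers varied: S100B was at 88.8, 17.4, 49.5 and 67.5 RPKM and DCT at 3.61, 2.15, 8.16 and 1.14, past 2-fold lower with overexpression (-2.29) and with knockdown (-2.10), and their part in the results was not tested. Of 4 leukocyte and 3 endothelial markers 0 reached 1 RPKM. Fibroblast markers summed to 2.26 to 7.0 RPKM and keratinocyte markers to 17.2 to 33.3.

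The sequences that the leading results turn on are those of HNRNPH2, the member with the largest ratio, of its paralog HNRNPH1, of HNRNPU, which stood above its control with overexpression, and of SRSF4, the SR gene with the lowest ratio. HNRNPH2 (GRCh38 chromosome X, 101408295 to 101414133, plus strand) has a single GENCODE 29 transcript of 2223 nt in 2 exons, the second of which holds the whole reading frame. The reading frames of HNRNPH1 and HNRNPH2 are both 1350 nt and 87.6% identical, with 167 differing bases, 139 of them at the third base of a codon. Their first 120 bases, aligned from the start codon and without a gap, differ at 23 positions, shown here in capitals, to let a reader see how often a read can be told apart:
HNRNPH1: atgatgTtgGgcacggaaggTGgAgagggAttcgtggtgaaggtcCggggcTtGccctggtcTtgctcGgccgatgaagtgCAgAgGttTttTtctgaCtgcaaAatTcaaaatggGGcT
HNRNPH2: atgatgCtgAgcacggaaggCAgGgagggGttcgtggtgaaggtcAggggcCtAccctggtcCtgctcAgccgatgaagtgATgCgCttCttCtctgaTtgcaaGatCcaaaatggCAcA
Of the 1301 windows of 50 bases in this alignment, 1 was identical between both genes. HNRNPA1 and the intronless HNRNPA1L2, by contrast, are 98.4% identical over 963 bases, and 43.0% of their windows of 50 bases are the same, so the split of reads between them is uncertain.

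The 250 bases before the RefSeq start of HNRNPH2, HNRNPU and SRSF4 (GRCh38.p14) are printed to set these genes side by side. Capitals mark matches, on either strand, to the CCAAT box (the letters CCAAT) or to the E-box (the letters CACGTG):
HNRNPH2, chrX:101407972-101408221, plus strand: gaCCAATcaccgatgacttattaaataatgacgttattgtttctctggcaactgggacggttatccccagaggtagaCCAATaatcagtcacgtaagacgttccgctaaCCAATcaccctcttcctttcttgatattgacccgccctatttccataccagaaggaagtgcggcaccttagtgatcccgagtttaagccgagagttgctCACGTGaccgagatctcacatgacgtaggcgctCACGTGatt
HNRNPU, chr1:244864544-244864793, minus strand: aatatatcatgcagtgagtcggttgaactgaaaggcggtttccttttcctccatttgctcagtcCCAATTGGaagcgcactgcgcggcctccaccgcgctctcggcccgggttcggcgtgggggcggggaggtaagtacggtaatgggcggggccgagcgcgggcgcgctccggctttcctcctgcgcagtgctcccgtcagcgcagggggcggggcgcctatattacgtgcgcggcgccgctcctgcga
SRSF4, chr1:29181901-29182150, minus strand: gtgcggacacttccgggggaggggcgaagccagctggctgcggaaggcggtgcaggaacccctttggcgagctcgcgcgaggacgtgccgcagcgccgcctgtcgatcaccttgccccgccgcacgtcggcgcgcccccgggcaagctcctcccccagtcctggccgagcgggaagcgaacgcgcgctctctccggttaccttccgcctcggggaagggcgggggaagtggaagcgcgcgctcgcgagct
HNRNPH2 holds 3 CCAAT matches, 248, 173 and 141 bases before the start, and 2 CACGTG matches, 42 and 9 bases before it. HNRNPU holds CCAAT once on each strand in overlapping positions, and SRSF4 holds neither word. Of the 33 genes, 30 matched the RefSeq table by symbol. SRSF2 and HNRNPA1 were not in it, and HNRNPCL1, which carries a joint symbol in the deposited data, could not be matched. Over the full windows of 300 bases (250 before and 50 after each start), CCAAT was in 48.8% of 43 windows of these genes and in 34.6% of all 35116, and CACGTG in 14.0% against 7.26%. TATAAA was in 14.0% against 11.5%. The AP-1 word TGANTCA and the cAMP response word TGACGTCA were in 0 of the 43 windows, against 7.71% and 1.85% of all. A match is only a run of letters.

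Both families were abundant in every library. Of the 33 genes, 31 could be measured, all at 12.2 RPKM or more in every library. The exceptions were SRSF12, an atypical SR protein that antagonizes splicing, at 0.0239 to 0.0599 RPKM, and HNRNPCL1, an intronless relative of HNRNPC, listed at 0 in all 4 libraries. HNRNPA2B1, which binds and transports RNA, was the most abundant in every library, at 348, 238, 312 and 358 RPKM. SRSF9, a short SR protein close to SRSF1, led the SR genes at 146, 153, 165 and 183 RPKM. SRSF8, a retrogene related to SRSF2, was the lowest SR gene at 17.9, 12.2, 14.2 and 15.7. Among hnRNPs the lowest was HNRNPA3 in 3 libraries and HNRNPH2 in the knockdown library. The summed level of the SR genes was 783, 612, 782 and 814 RPKM, and that of the hnRNP genes 2239, 1845, 2144 and 2245. The overexpression library was the lowest in both sums of RPKM. As a share of all summed RPKM without small RNA genes, SR genes took 0.21%, 0.148%, 0.201% and 0.147% and hnRNP genes 0.599%, 0.446%, 0.55% and 0.406%, so on that scale the knockdown library was the lowest for both families. The SR sum stood at 0.35, 0.332, 0.365 and 0.363 of the hnRNP sum, so the balance of the families moved little.

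**Figure D1:**
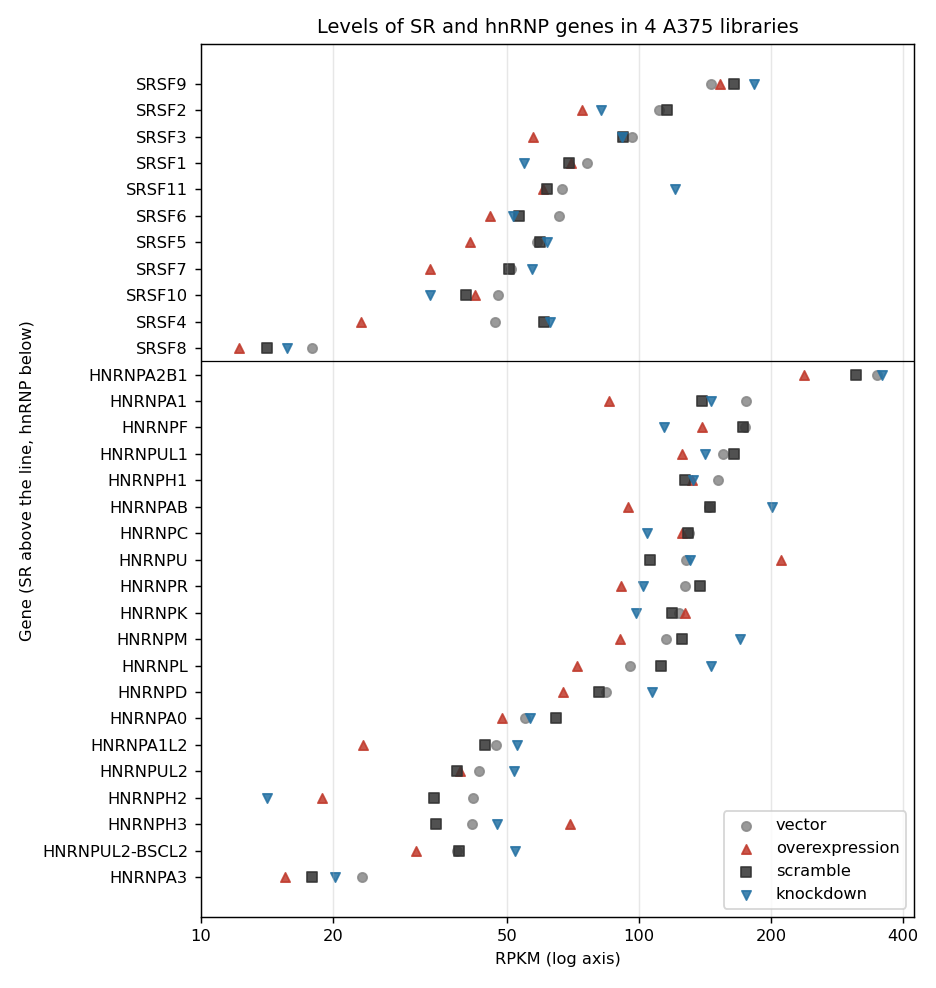
RPKM (log axis) of the 31 measured SR and hnRNP genes, 1 point for each of the 4 libraries, sorted by the vector level within each family. The overexpression triangles lie furthest left for 20 of the 31 genes, and HNRNPA2B1 lies furthest right at 238 to 358 RPKM.

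The members varied less over the 4 libraries than genes that reached 10 RPKM in some library. The highest library was under 2 times the lowest for 23 of 31 members (74.2%), against 40.6% of 8377 genes at 10 RPKM or more in some library (small RNA genes left out). The median ratio of highest to lowest was 1.53 for members and 2.21 for those genes. Those genes could be low in their other libraries, whereas every measured member was at 12.2 RPKM or more in all 4. The sets are thus unlike in level, and a set matched in level was not compared. HNRNPH1, which binds G tracts, varied least at 1.19, with 151, 132, 127 and 133 RPKM. HNRNPC, which binds uridine tracts and keeps Alu elements from being spliced in, followed at 1.26, as did SRSF9. HNRNPH2 varied most at 2.95, then SRSF4 at 2.70 and HNRNPA1L2 at 2.24. The overexpression library was the lowest of the 4 for 20 members and the highest for 3.

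Between the scramble and vector libraries, neither of which carries a MAGE-A1 construct, all 31 measured members lay within 1.5-fold, as did 92.1% of all 13326 genes tested. The largest differences were SRSF4 at 0.37 and HNRNPA3 at -0.37 on the log2 scale. Of the members 0 were past 2-fold, against 2.68% of all genes (0.893% higher and 1.79% lower). The set of all genes was not matched to the members in level. Of the members 20 were below 0 and 11 above, against 52.4% and 47.6% of all genes. This is the spread of control libraries that the ratios below can be read against, and it comes from a single pair. The overexpression and the control comparison share the vector library, and the knockdown and the control comparison share the scramble library.

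With MAGE-A1 overexpression most SR and hnRNP genes were below their vector level, by less than 2-fold. Of 31 measured members 27 had a log2 ratio below 0, 10 of 11 SR and 17 of 20 hnRNP genes, against 48.4% of all 13577 genes tested (51.6% were above 0) and 42.9% of the 8242 at 10 RPKM or more. The median log2 ratio was -0.51 for SR genes and -0.32 for hnRNP genes, beside 0.02 over all genes. With the scramble library as control the medians were -0.21 and -0.36, so the order of the families turned, and with the mean of both controls they were -0.37 and -0.33. Only HNRNPA1 and HNRNPH2 were lower by 2-fold (2 of 31, where 7.28% of all genes were lower), and 0 were higher (10.6% of all genes, 17.9% either way). The share of members past 2-fold was therefore not above the background. Fewer cells expressing a gene and less RNA per cell cannot be told apart in such bulk libraries.

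SRSF4, a long SR protein of nuclear speckles, had the lowest ratio among SR genes. It was at 46.8, 23.2, 60.8 and 62.5 RPKM. The overexpression value stood below the other 3. With 1 RPKM added to both values, the log2 ratio was -0.98, just under 2-fold against the vector library. It was past 2-fold against the scramble library or the mean of both controls. Without the added 1 RPKM the ratio of RPKM to the vector library was 0.496, past 2-fold. Its 95% exact conditional interval, from reads estimated from the RPKM (2464 and 641), was 0.454 to 0.541. This interval, like those below, covers counting error only. SRSF3, the smallest SR protein, which also serves mRNA export, was at 96.2, 57.2, 92.0 and 91.3 RPKM, a log2 ratio of -0.74. Its 3 other libraries lay close together above the overexpression value.

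SRSF7, a zinc-knuckle SR protein that acts in export with SRSF3, was also lowest in the overexpression library, at 51.1, 33.3, 50.5 and 57.0 RPKM (log2 ratio -0.60), and highest in the knockdown library. SRSF2, a speckle protein often mutated in myelodysplastic syndromes, was at 111 and 73.9 in this pair (-0.58). SRSF5, SRSF6 and SRSF8 had ratios of -0.50 to -0.52. The proto-oncogene SRSF1 was nearly level at 76.2 and 70.0 RPKM (-0.12), as were SRSF10, a splicing repressor when dephosphorylated (-0.17), SRSF11 (-0.14) and SRSF9 (0.07). The SR genes thus held 7 members at -0.50 or below and 4 between -0.17 and 0.07.

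HNRNPA1, the silencer-binding protein that opposes SRSF1 at many exons, was at 175, 85.2, 139.5 and 146 RPKM. The overexpression value was the lowest of the 4, at a log2 ratio of -1.03 against the vector library and of -0.70 against the scramble library. The ratio of RPKM to the vector library was 0.487 (95% interval 0.471 to 0.504). Its near copy HNRNPA1L2 moved alike, at 47.1 and 23.5 RPKM (-0.97), and the summed RPKM of both gave -1.02. With SRSF1 level and HNRNPA1 low, SRSF1 stood at 0.821 of HNRNPA1 in the overexpression library and at 0.374 to 0.497 in the other 3. The remaining members of the A and B group were less far apart: HNRNPAB at -0.61, HNRNPA2B1 and HNRNPA3 at -0.55 each, and HNRNPA0, which stabilizes stress-response mRNA, at -0.17.

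The G-tract binders of the H and F group split. HNRNPH2 was at 41.7, 18.9, 34.0 and 14.2 RPKM, so that both libraries with a MAGE-A1 construct lay below both controls. Its log2 ratio was -1.10 with overexpression (RPKM ratio 0.454, 95% interval 0.410 to 0.501), or -0.81 against the scramble library. HNRNPH3, a shorter relative, was at 41.5, 69.5, 34.5 and 47.5 RPKM, the highest ratio of any member at 0.73. HNRNPH1 stayed at -0.19 and HNRNPF at -0.32. HNRNPH3 and HNRNPH2 were at nearly equal levels in both controls, 0.995 and 1.01 to 1, and at 3.67 to 1 in the overexpression and 3.35 to 1 in the knockdown library.

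HNRNPU, a nuclear scaffold protein that binds chromatin and RNA, was the other member clearly above its control. It was at 128, 211, 106 and 130.4 RPKM, a log2 ratio of 0.71 (RPKM ratio 1.65, 95% interval 1.61 to 1.68). That made it the second most abundant member in the overexpression library, where it had ranked ninth of 31 in the vector library. Its antisense neighbour HNRNPU-AS1, not counted here, went from 10.2 to 6.24 RPKM, and whether the counting used strand is not given in the sources used here. HNRNPUL1, HNRNPUL2 and the readthrough HNRNPUL2-BSCL2, which shares exons with HNRNPUL2, had ratios of -0.30, -0.14 and -0.31. HNRNPK, a poly(C)-binding protein, was level at 0.05 and HNRNPC at -0.06. HNRNPR (-0.47), HNRNPL, which binds CA repeats (-0.40), HNRNPM (-0.34) and the AU-rich element binder HNRNPD (-0.32) lay in the middle.

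**Figure D2:**
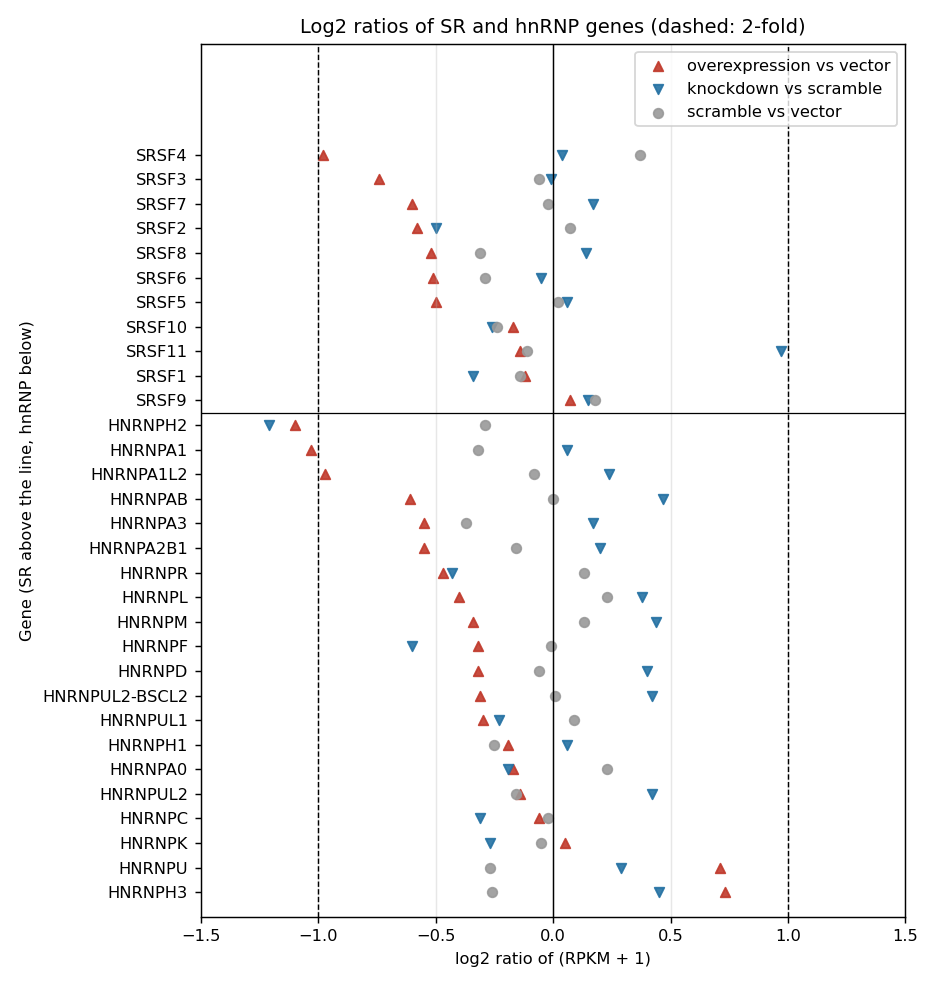
Log2 ratio of (RPKM + 1) for each measured SR and hnRNP gene in the overexpression, knockdown and control comparisons, with dashed lines at 2-fold. Overexpression points lie left of 0 for 27 of 31 genes and past 2-fold for HNRNPH2 and HNRNPA1, while control points all lie between -0.37 and 0.37.

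With the MAGE-A1 hairpin the families scattered about their scramble level. Of 31 members 19 were above 0 and 12 below, where 52.5% of all 13569 genes tested were above and 47.5% below. The median was 0.04 for SR genes and 0.18 for hnRNP genes, beside 0.06 over all genes. The SR median was below 0 against the vector library (-0.07) or the mean of both controls (-0.03), where 16 members were below 0. With libraries scaled to a common median 5 were below 0, and the SR and hnRNP medians were 0.35 and 0.49 beside 0.32 over all genes. Of the members 1 was lower by 2-fold (8.52% of all genes) and 0 were higher (12.4% of all genes, 21% either way). Within 1.5-fold lay 28 of 31 members, against 53.3% of all genes. All genes include ones at low levels, and a set matched to the members in level was not compared.

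HNRNPH2 was the member lower by 2-fold, at 34.0 RPKM with the scrambled hairpin and 14.2 with the MAGE-A1 hairpin. Its log2 ratio was -1.21 (RPKM ratio 0.416, 95% interval 0.376 to 0.461). Against the vector library the ratio was -1.49. HNRNPF followed at 173 and 114 RPKM (-0.60), then SRSF2 (-0.50) and HNRNPR (-0.43). SRSF2 was below its own control in both comparisons, at 116 and 82.0 RPKM here. SRSF1, at 69.3 and 54.5, had a ratio of -0.34.

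SRSF11, an SR-related protein that contacts the splice site factor U2AF, had the highest ratio. It was at 66.6, 60.5, 61.6 and 121 RPKM, so that the knockdown library stood alone above 3 nearly equal values. The log2 ratio was 0.97, just under 2-fold (RPKM ratio 1.97, 95% interval 1.89 to 2.05). Next came HNRNPAB at 145 and 201 RPKM (0.47), HNRNPH3 (0.45), HNRNPM (0.44), HNRNPUL2 and HNRNPUL2-BSCL2 (0.42 each), HNRNPD (0.40) and HNRNPL (0.38). HNRNPA1, at 0.06, and SRSF4, at 0.04, the members furthest down with overexpression besides HNRNPH2, were level in this pair.

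HNRNPH2 overlaps a readthrough gene, RPL36A-HNRNPH2, which takes in 362 of its exon bases (16.3%) in GENCODE 29. That gene was at 9.50, 8.21, 9.21 and 14.4 RPKM, higher in the knockdown library where HNRNPH2 was lowest. Adding both RPKM gave log2 ratios of -0.89 with overexpression and -0.58 with knockdown, under 2-fold. The readthrough transcript is short, so few reads make a large RPKM. Adding the estimated reads instead (2119 and 522 in the first pair, 1178 and 662 in the second) gave -1.09 in each pair, on a scale with no pseudocount. Over all 10265 candidate genes (5 RPKM or more in some library), the 5 whose centred log2 levels over the 4 libraries lay closest to those of HNRNPH2 were C5orf30 (distance 0.131), GLI3 (0.143), KIAA1143 (0.145), CHSY1 (0.157) and BTBD3 (0.165). GLI3, for instance, was at 20.7, 9.44, 18.6 and 6.41 RPKM.

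The comparisons with MAGE-A1 constructs have separate controls and can be set side by side. Of the 31 members 16 (51.6%) were below 0 with overexpression and above 0 with knockdown, against 24.8% of the 13106 genes measured in both. Another 11 (35.5%) were below 0 in both, against 24.1%, and HNRNPH2 was the member past 2-fold in both. Above 0 in both were SRSF9, HNRNPH3 and HNRNPU (9.68%, against 26.9%). HNRNPK was above 0 with overexpression and below with knockdown. Since 27 members were below 0 with overexpression and 19 above 0 with knockdown, these shares largely restate the separate counts. They do not show a link between the responses, which was not tested.

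**Figure D3:**
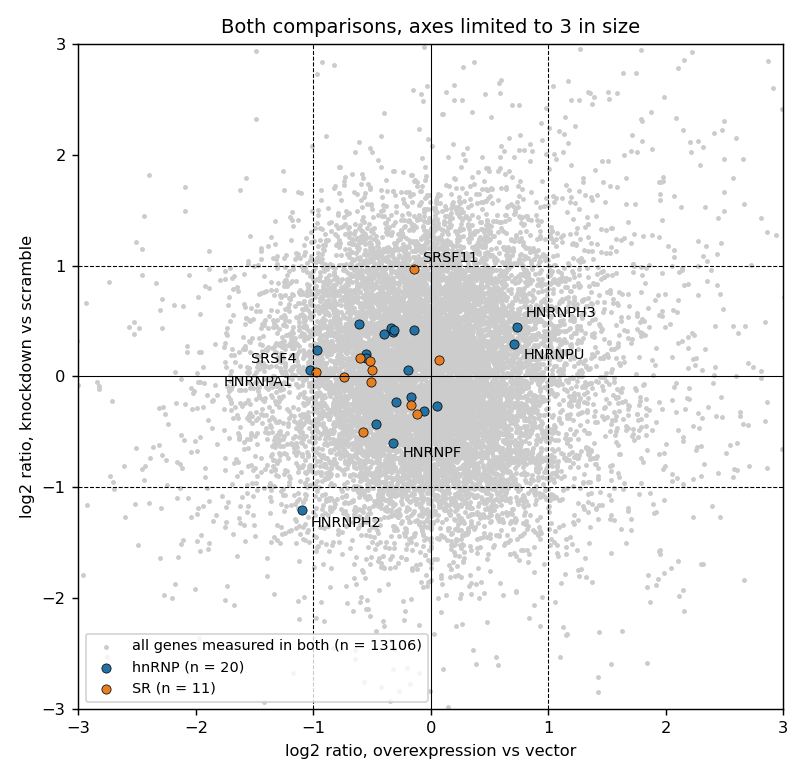
Log2 ratio with overexpression (x axis) and with knockdown (y axis) for all 13106 genes measured in both (grey), 20 hnRNP genes (blue) and 11 SR genes (orange), with dashed lines at 2-fold and axes limited to 3 in size. Most members lie left of 0 within 2-fold, HNRNPH2 lies past 2-fold on both axes and SRSF11 just under 2-fold on the y axis.

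Transcript length moved with the knockdown ratio. Across the 12553 genes with a length, small RNA genes left out, Spearman's rho of the ratio with length was -0.524 and with GC content 0.427. Across the 31 members, with a median length of 3487 nt, the values were -0.131 and 0.227. These are correlations across genes in shared libraries, as a description. With a fitted trend of length and GC removed, SRSF11 stood at 1.32 and HNRNPH2 at -1.20 with knockdown. Among members that changed sign there were HNRNPR (-0.43 to 0.25), HNRNPC (-0.31 to 0.12) and SRSF9 (0.15 to -0.43). HNRNPU rose from 0.29 to 0.87, and HNRNPAB fell from 0.47 to 0.06. Of the 31 members 9 were then below 0 with knockdown, against 12 before. With overexpression, HNRNPA1L2 joined HNRNPA1 and HNRNPH2 past 2-fold once the trend was removed. For overexpression, over 12546 genes, the rho for length came to 0.0527 and that for GC to -0.215. Between the controls, over 12391 genes, they were -0.169 and 0.52, and over the members -0.295 and 0.442, so the relation with GC was larger there than in the knockdown pair.

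**Figure D4:**
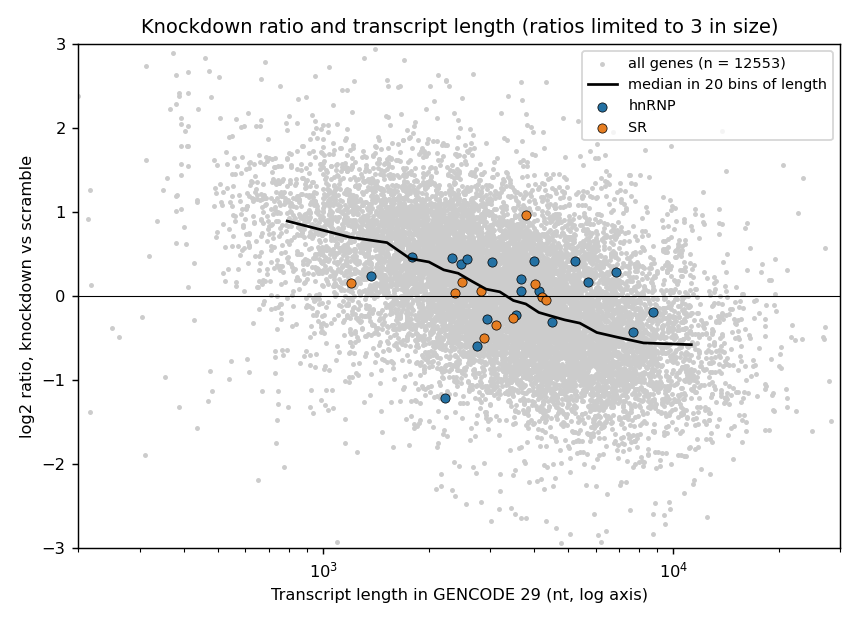
Log2 ratio of knockdown to scramble (y axis, limited to 3 in size) against transcript length in nt (log axis) for 12553 genes (grey), with the median in 20 bins of length (black) and the SR (orange) and hnRNP (blue) genes. The black line passes from above 0 to below 0 with length, and HNRNPH2, at -1.21, and SRSF11, at 0.97, lie away from it.

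In the annotation many members, though not all hnRNP genes, have a property that the symbols do not fix. All 12 SR genes have at least 1 GENCODE 29 transcript marked as an NMD target, as do 12 of 20 hnRNP genes (60%), against 42.7% of the 12427 protein-coding genes at 1 RPKM or more in some library. The median number of annotated transcripts was 8.5 for SR, 11 for hnRNP and 8 for those protein-coding genes, and the shares were not adjusted for it. HNRNPU had 9 NMD transcripts and SRSF7 had 6, while HNRNPH2, HNRNPH3, HNRNPF and HNRNPA3 had 0. The deposited values are sums over a gene, so productive and NMD transcripts were not separated.

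The other splicing genes were taken from 5 lists, whose counts stand beside 10.6% of all genes higher and 7.28% lower with overexpression, and 12.4% and 8.52% with knockdown. Of 24 SR-related proteins 1 was lower and 0 higher with overexpression (median -0.31), and 2 were higher and 0 lower with knockdown (median 0.28), counts not above those shares. RNPS1, a part of the exon junction complex, was at 102 and 47.8 RPKM with overexpression (-1.08), and LUC7L3, a U1-associated protein, at 103 and 263 with knockdown (1.34), with CLASRP at 17.7 and 37.9 (1.05). The kinases and phosphatases of SR proteins had a median of 0.31 with overexpression and -0.27 with knockdown, opposite in sign to SR-related proteins. Of 16 measured, 1 was lower with overexpression, the kinase DYRK1B (9.51 and 2.84 RPKM, -1.45), and 1 higher with knockdown, the phosphatase subunit PPP1CA (98.7 and 219, 1.14). CLK1, which phosphorylates SR proteins in the nucleus, was at 7.62 and 15.8 RPKM with overexpression (0.96), and SRPK1, their cytoplasmic kinase, at 28.5 and 40.3 (0.49). The kinases did not move together: CLK2 was at 20.1 and 12.1 (-0.68), and 6 of the 16 genes were below 0.

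Of the other splicing regulators 4 of 46 were higher and 0 lower with overexpression (median 0.07), beside 10.6% and 7.28% of all genes. Of these, RBM24 (0.108 and 2.13 RPKM) and ESRP1 (0.128 and 1.58) passed the minimum of 1 RPKM only in the overexpression library, so they could not have been counted as lower. The rest were MBNL2, given below, and CELF1 (51.0 and 117 RPKM, 1.19), both well above that minimum in each library of the pair. With knockdown 5 of 44 were lower and 1 higher (median 0.06), beside 8.52% and 12.4% of all genes. The muscleblind proteins MBNL1 (40.4 and 14.1 RPKM, -1.46) and MBNL2 (16.7 and 5.75, -1.39) were among the lower ones with QKI (12.6 and 4.17, -1.39). MBNL2 was also higher with overexpression, at 17.4 and 37.2 RPKM (1.06).

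Of 56 core spliceosome genes 1 was higher and 3 lower with overexpression (median -0.08), and 8 were higher and 2 lower with knockdown (median 0.52, beside 0.06 over all genes). The 8 are near the 12.4% of all genes that were higher. Over all genes the knockdown ratio fell with transcript length (rho -0.524), and this trend was not removed for any of the 5 lists. Its part in their knockdown medians and counts was not tested. SNRPB2, a U2 snRNP protein, was at 49.3 and 201 RPKM with knockdown (2.00) and SART1, of the tri-snRNP, at 37.5 and 98.2 (1.37). With overexpression SNRNP25, of the minor spliceosome, was at 39.7 and 11.3 RPKM (-1.72) and PLRG1 at 21.6 and 63.7 (1.52). The 15 NMD factors had a median of 0.49 with overexpression, with 5 below 0, beside 0.02 over all genes. With knockdown their median was 0.35, with 7 below 0. Of the 15, 1 was higher with overexpression, the kinase SMG1 (20.3 and 46.1 RPKM, 1.15), which was lower with knockdown (18.0 and 5.24, -1.61). UPF3B (9.58 and 33.2, 1.69) and its paralog UPF3A (17.2 and 48.9, 1.46) were higher with knockdown. Between the controls 0 genes of these 5 lists were past 2-fold, where only 2.68% of all genes were.

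**Figure D5:**
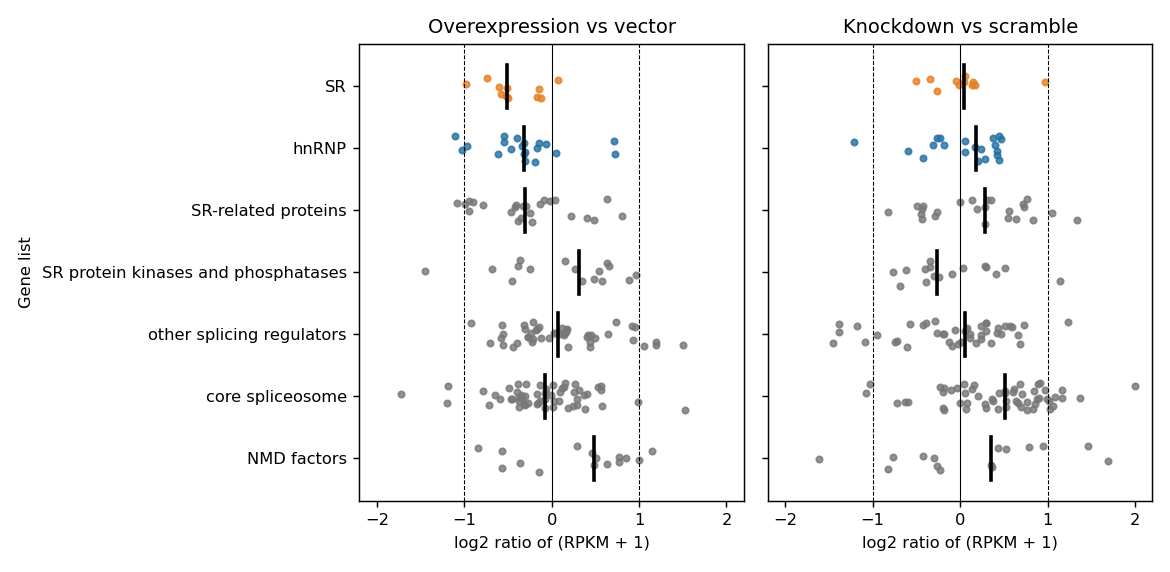
Log2 ratio of (RPKM + 1) of each measured gene in the SR and hnRNP families and 5 other lists, with overexpression (left) and knockdown (right), a black bar at each median and dashed lines at 2-fold; vertical scatter within a row has no meaning. SR and hnRNP medians lie at -0.51 and -0.32 on the left and at 0.04 and 0.18 on the right, and the core spliceosome lies at -0.08 and 0.52.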

How the data were processed

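Poly(A) RNA of 4 A375 libraries, 1 per group by sample title, was made into libraries with an Ion total RNA-seq kit, per the labels' protocols; these speak of 2 samples at extraction. The deposited values are RPKM, per the file headers, 1 for each of 23284 symbols. Per the submitters' processing notes, Cufflinks 2.2.0, SAMtools 1.1, Bowtie2 2.2.4 and TopHat2 2.0.13 were used with hg19, in no stated role. The annotation is not given in the sources used here. Ratios used a pseudocount of 1 RPKM, a minimum of 1 RPKM in either library and a threshold of 2-fold. The deposited RPKM hold no counts: depth came from 2297 genes over 600 nt with a single GENCODE 29 transcript, as whole multiples of RPKM × (length - 200), where 63.7% to 68.5% of values of about 1 to 5 reads lay within 0.1 of a whole read. Measured members had 348 to 29050 estimated reads, taking the longest protein-coding transcript, so reads of genes with many transcripts are rough. GENCODE coordinates are GRCh38, not the files' build. Depth and trend fits were tried on simulated data, with depths set near the estimates and a trend of length but not of GC. The GC part of the fit was thus not tested. Python 3.11.15, pandas 2.3.3, scipy 1.17.1 and Biopython 1.88 were used. Each member is named or counted. From other lists at most 4 members with the largest ratios past 2-fold per list were named. CLK1, CLK2, SRPK1, CELF1 and ESRP1 were added after their values were seen. Members and lists were chosen with earlier results of these data known.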

Additional observations from a re-analysis of the deposited data

Results flagged for a closer look

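HNRPLL, an hnRNP gene that falls outside the symbol rule because the files carry its older name, was higher with overexpression at a log2 ratio of 1.06. It was at 11.5, 25, 9.36 and 6.39 RPKM (vector, overexpression, scramble, knockdown), and its knockdown ratio was -0.49. No hnRNP gene inside the rule was past 2-fold in that direction. HNRPDL, the other gene under an older name, was at -0.24 and 0.18 in the overexpression and knockdown comparisons.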

How the results depend on the processing

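With overexpression, 2 members were past 2-fold, and this count was 4 with a pseudocount of 0.1 RPKM and 4 with a common upper quartile (SRSF4 and HNRNPA1L2 added in both), 0 with a common median, 1 against the scramble library and 1 against the mean of both controls (SRSF4 in place of HNRNPA1 and HNRNPH2), 1 with overlapping genes summed (HNRNPA1; chosen after seeing the data) and 9 at 1.5-fold (7 lower, 2 higher). With knockdown, 1 was past 2-fold, and the count was 2 with the length and GC trend removed (SRSF11 and HNRNPH2), 3 at 1.5-fold and 0 with overlapping genes summed. With a common median, which shifted the all-gene median by 0.27, it was 1 but that gene was SRSF11, higher, in place of HNRNPH2 at -0.91. In the overexpression pair the common median moved it by 0.14, and 23 of 31 members were still below 0, against 24 to 29 under the other settings that keep 31 members. The SR median was -0.35 and the hnRNP median -0.16 on that scale. The SR median of the knockdown pair reversed to -0.07 against the vector library and -0.03 against the mean of both controls, and that of the controls, -0.06, to 0.09 with the trend removed. Between the controls 0 members were past the threshold under every setting run. No paired analysis was possible because each group has 1 library. Calls near 2-fold rest on 1 library each.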
